A study of Mus musculus with 8 samples.

Results

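Fhad1 and Fhad1os2 form a pair of genes on opposite strands of mouse chromosome 4. Fhad1 (ENSMUSG00000051435) encodes a protein with a forkhead-associated (FHA) domain, and Fhad1os2 (ENSMUSG00000085922) is annotated as a long noncoding RNA (lncRNA) that overlaps the 3′ part of Fhad1 in antisense orientation. The 2 genes were picked by symbol from the 32285 features of the count tables, because their levels in these libraries were already known to differ between genotypes. Their genotype and time differences are therefore given as descriptions, without a test. Tests are given for other genes only.

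FHA domains bind phosphorylated threonine in other proteins and are found in kinases, DNA repair factors and motor proteins. An antisense lncRNA is transcribed from the strand opposite to a second gene and can share part of its sequence with it. In the kidney, the proximal tubule takes up most of the filtered glucose, amino acids and phosphate. Its first, convoluted stretch (PCT) carries high-capacity transporters such as the glucose carrier Slc5a2, and its last, straight stretch (PST) is marked by Slc7a13 and the steroid hydroxylase Cyp7b1.

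The study profiled nuclei from frozen kidneys of 8 male mice on a C57BL/6J background, 2 mice in each of 4 groups. Ctrl mice were Bmal1lox/lox, and their cKOt littermates were Bmal1lox/lox/Pax8-rtTA/LC-1 Cre. All mice, Ctrl included, received doxycycline at 2 mg/ml with 20 mg/ml sucrose in the drinking water for 2 weeks from 8 weeks of age, which induces Cre and inactivates the clock gene Bmal1 (Arntl) where the Pax8 promoter is active, that is in the renal tubule. Kidneys were collected at Zeitgeber time (ZT) 4, in the light phase, or at ZT16, in the dark phase. The comparisons asked how the levels of the pair depended on the clock gene and on time of day, and in which nuclei.

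After filtering, 81391 nuclei remained, with 36548873 to 54500820 unique molecular identifiers (UMIs) per library. Of 80565 distinct barcodes, 823 occurred in more than 1 library. Nuclei were grouped by marker genes into 22 named classes, and 6.71% stayed unnamed. Of these classes, 3 were proximal. PCT held 14235 nuclei, PST held 3646, and 8115 nuclei in clusters that scored on both marker lists are called PCT/PST. Levels are given as CPM, the UMIs of a gene per 1000000 UMIs of the library or class. Cyp7b1 stood at 5616 CPM in PST against 54.2 in PCT, and Slc5a12 at 3600 in PCT against 107 in PST. PCT/PST was low in both, with Cyp7b1 at 89.8 and Slc5a12 at 151, and also in the PCT marker Slc5a2 (29.0). It held the PCT marker Slc34a1 at 4868 and the PST marker Slc7a13 at 761, so only part of each list marks this class. Arntl was counted at 30.1 ± 3.20 CPM in Ctrl ZT4, 201 ± 51.4 in cKOt ZT4, 133 ± 0.230 in Ctrl ZT16 and 227 ± 20.9 in cKOt ZT16 (mean ± SD, n = 2 each). UMIs of this 3′ kit need not come from the deleted part of Arntl, so these counts are no check of the deletion.

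In the GENCODE annotation of GRCm39, Fhad1 lies on the minus strand at chr4:141617129-141742393 and spans 125265 bases, with up to 33 exons in 1 transcript. Fhad1os2 lies on the plus strand at chr4:141612965-141624593 and has 2 exons. Of its 11629 bases, 7465 lie within Fhad1, but only 41 of its 945 exon bases fall on a Fhad1 exon, and all 41 are coding there. They are bases 104 to 144 of the Fhad1os2 transcript, at chr4:141623752-141623792, and their reverse complement is present in 2 Fhad1 transcripts. The stretch is shown, in the direction of Fhad1os2, because it is the only exonic sequence that the pair shares:
Fhad1os2 overlap: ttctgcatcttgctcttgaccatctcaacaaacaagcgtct
The annotated 3′ end of Fhad1 lies inside the intron of Fhad1os2. The methods at hand name neither the treatment of intronic reads nor a strand setting for the counting. Without strand, reads of the 2 genes could not be told apart where they overlap. Another antisense gene, Fhad1os1 (ENSMUSG00000085424, plus strand, chr4:141710303-141714108, 4 exons), lies wholly within Fhad1 and touches none of its exons.

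The 250 bases upstream of each gene's RefSeq start are shown on build GRCm38.p6, because the comparison is about a clock transcription factor. The RefSeq starts lie further apart than the GENCODE starts above, so at least 1 window may not adjoin the GENCODE start. Fhad1 is at chr4:142011652-142011901 on the minus strand and Fhad1os2 at chr4:141881031-141881280 on the plus strand:
Fhad1: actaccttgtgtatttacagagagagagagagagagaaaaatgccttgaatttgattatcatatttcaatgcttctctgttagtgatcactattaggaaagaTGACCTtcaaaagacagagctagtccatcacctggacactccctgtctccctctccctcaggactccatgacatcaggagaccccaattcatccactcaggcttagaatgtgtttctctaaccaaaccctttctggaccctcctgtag
Fhad1os2: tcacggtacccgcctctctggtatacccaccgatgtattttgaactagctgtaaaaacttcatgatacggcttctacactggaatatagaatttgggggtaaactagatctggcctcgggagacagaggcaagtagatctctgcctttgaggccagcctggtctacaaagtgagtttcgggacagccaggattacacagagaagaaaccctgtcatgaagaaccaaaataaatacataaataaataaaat
Both strands were searched for 4 sets of letters. The E-box CACGTG, which the BMAL1 dimer binds, and its variant CACGTT matched neither sequence, and nor did the D-box TTATGTAA. They occur in 6.02%, 3.85% and 0.819% of 32851 such promoter windows. The half-site AGGTCA, used by nuclear receptors, matched once in Fhad1, on the opposite strand and beginning 148 bases before the start (capitals). It occurs in 14.0% of the windows and was absent from the Fhad1os2 window.

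Summed over all nuclei, Fhad1 was a rare transcript in Ctrl kidneys and a moderately abundant one in cKOt kidneys. The Ctrl libraries held 92 and 99 Fhad1 UMIs at ZT4 and 106 and 79 at ZT16. The cKOt libraries held 1408 and 1771 at ZT4 and 3007 and 2009 at ZT16. In CPM this was 2.26 ± 0.365 in Ctrl ZT4, 33.7 ± 1.42 in cKOt ZT4, 1.87 ± 0.10 in Ctrl ZT16 and 50.1 ± 10.9 in cKOt ZT16 (mean ± SD, n = 2 each). The genotypes did not overlap, and the lowest cKOt library (32.7) stood over 10 times above the highest Ctrl library (2.52). Among 16351 mRNAs in the fit, 1.13% had all 4 cKOt libraries above all 4 Ctrl libraries, and 0.0122%, that is 2 mRNAs, had this gap of over 10 times. The other was Vmn1r32, annotated as a vomeronasal receptor gene, with 6.34 to 10.2 CPM in cKOt and 0 to 0.0228 in Ctrl. In the edgeR fit the log2 fold change of Fhad1 between cKOt and Ctrl was 3.96 ± 0.19 (SE) at ZT4 and 4.81 ± 0.20 at ZT16. In these sums, more nuclei of a type and more RNA per nucleus cannot be told apart. Proximal nuclei made up 26.7 to 33.5% of the nuclei in Ctrl libraries and 31.7 to 38.3% in cKOt libraries.

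**Figure D1:**
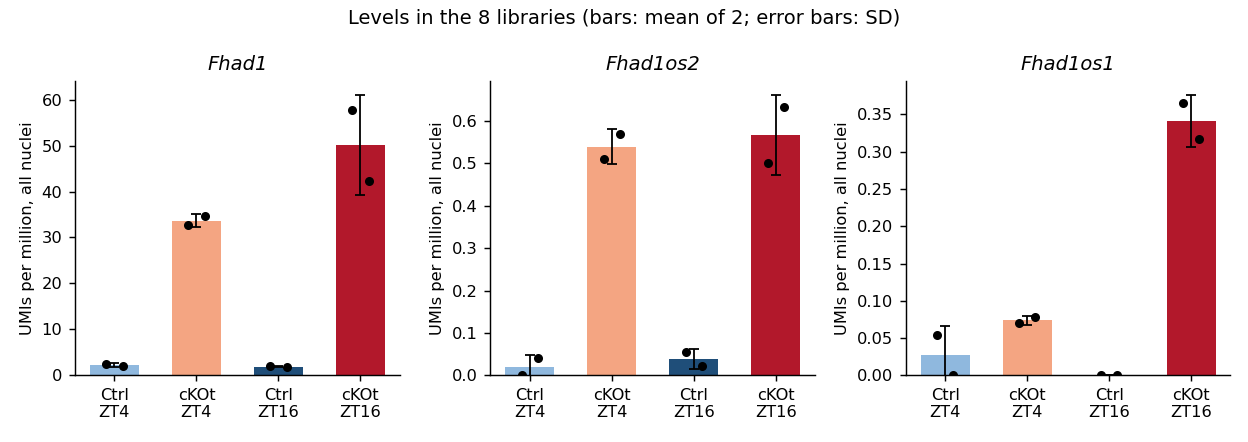
CPM over all nuclei for Fhad1, Fhad1os2 and Fhad1os1 in the 4 groups. Points are the 2 libraries of a group, bars their mean and error bars the SD. Fhad1 lay between 1.80 and 2.52 in Ctrl and between 32.7 and 57.8 in cKOt, while both antisense genes stayed below 1 CPM in every library.

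Fhad1os2 was far rarer than Fhad1, with 1.29% of the pair's UMIs in cKOt, and lay higher in the same libraries. It had 0 and 2 UMIs in the Ctrl ZT4 libraries, 22 and 29 in cKOt ZT4, 3 and 1 in Ctrl ZT16 and 26 and 30 in cKOt ZT16. The highest Ctrl library reached 0.0550 CPM and the lowest cKOt library 0.50, so the genotypes did not overlap here either. Of 4924 lncRNAs in the fit, 1.12% showed such a separation with cKOt higher. From the summed counts, Fhad1os2 was 23.3-fold higher in cKOt at ZT4 (95% exact interval from counting, 6.13 to 198) and 13.8-fold higher at ZT16 (5.11 to 52.6). The intervals cover counting error only. Both Ctrl UMIs at ZT4 were in replicate 2, and the fitted log2 fold change of 4.61 was 7.73 without that library and 3.88 without replicate 1.

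Time of day moved Fhad1 far less than genotype. In Ctrl, the log2 fold change of ZT16 against ZT4 was -0.27 ± 0.20, with 2.52 and 2.00 CPM at ZT4 and 1.94 and 1.80 at ZT16, both ZT4 libraries lying above both ZT16 libraries, as for 20.4% of mRNAs. In cKOt it was 0.57 ± 0.16, and both ZT16 libraries (57.8 and 42.4 CPM) lay above both ZT4 libraries (32.7 and 34.7), as for 16.3% of mRNAs. The difference between these time effects was 0.85 ± 0.25 on the log2 scale and is given without a test. Fhad1os2 in cKOt gave 0.05 ± 0.43, with 0.511 and 0.568 CPM at ZT4 and 0.50 and 0.633 at ZT16, and the times overlapped.

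The high Fhad1 level of cKOt kidneys lay in the proximal tubule and was highest in its straight part. PST nuclei held 189.7 and 257 Fhad1 CPM in the cKOt ZT4 libraries and 281 and 276 in cKOt ZT16. The Ctrl libraries had 2.06 and 4.10 at ZT4 and 2.56 and 4.19 at ZT16. These rest on 4002 Fhad1 UMIs in the cKOt and 47 in the Ctrl libraries, from 396 to 516 PST nuclei per library. The fitted log2 fold change in PST was 6.09 ± 0.33 at ZT4 and 6.45 ± 0.33 at ZT16, that is 68.0-fold and 87.5-fold. Without replicate 2 of Ctrl ZT4 the ZT4 value was 6.77. With every nucleus thinned to 1500 UMIs, the mean level at ZT16 was 1.47 CPM in Ctrl and 295 in cKOt, against 3.37 and 278 unthinned. Ctrl PST at ZT16 held 26 Fhad1 UMIs before thinning and few after it, so its lower thinned value cannot be told apart from counting error. All 4 cKOt libraries lay above all 4 Ctrl libraries in PST, as for 2.4% of mRNAs there. In PST, 3 of 12334 mRNAs (0.0243%) had their lowest cKOt library over 10 times above their highest Ctrl library, namely Fhad1, Vmn1r32, which had 0 UMIs in every Ctrl library so that any count would pass, and Hao2, which encodes a peroxisomal hydroxyacid oxidase.

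PCT/PST nuclei came next. Fhad1 stood at 62.7 and 53.9 CPM in the cKOt ZT4 libraries and at 106.7 and 95.2 in cKOt ZT16, against 0.606 to 1.38 in the 4 Ctrl libraries. The log2 fold change was 5.45 ± 0.24 at ZT4 and 6.82 ± 0.25 at ZT16, and the genotypes did not overlap, as for 2.44% of mRNAs in the class with cKOt higher. The genotypes filled this class from different clusters, cluster 4 being mostly cKOt and cluster 9 almost wholly Ctrl. In cluster 4, the Ctrl nuclei present had 0 to 4.36 CPM and the cKOt nuclei 53.5 to 107. The Ctrl range rests on 317 and 22 nuclei at ZT4 and 25 and 156 at ZT16, with 4, 0, 1 and 1 Fhad1 UMIs. In PCT nuclei, Fhad1 had 16.2 and 10.4 CPM in cKOt ZT4 and 21.7 and 22.9 in cKOt ZT16, against 0.987 to 2.36 in Ctrl, with log2 fold changes of 2.99 ± 0.37 and 4.25 ± 0.38, again without overlap, which 1.55% of mRNAs in PCT shared. Without replicate 1 of Ctrl ZT4 the ZT4 value was 3.71. The PCT clusters also held unequal shares of the libraries, cluster 6 less so, with 18.9 to 31.8% of its nuclei from each group. There, cKOt libraries ranged from 15.2 to 33.4 and Ctrl libraries from 0.446 to 2.22 CPM. The order PST, PCT/PST, PCT held in every cKOt library.

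**Figure D2:**
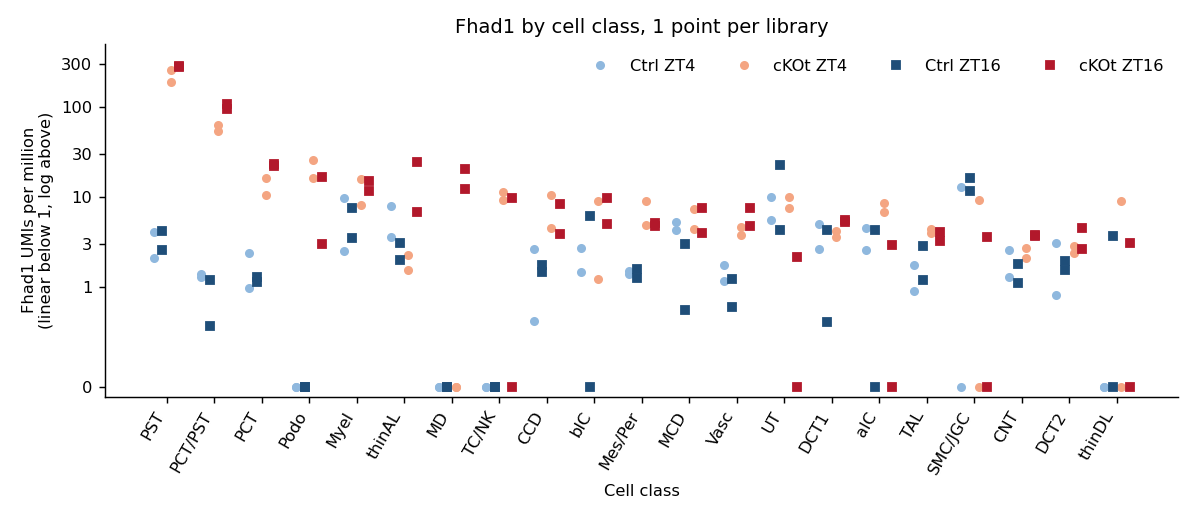
Fhad1 CPM (vertical axis, linear below 1 and logarithmic above) in 21 cell classes with at least 10 nuclei in every library, 1 point per library, ordered by the cKOt mean. PST (189.7 to 281 in cKOt), PCT/PST (53.9 to 106.7) and PCT (10.4 to 22.9) separate the genotypes widely, and in the other classes the points lie below 30.

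Across the 21 classes, the cKOt means of Fhad1 ran from 2.98 to 251 CPM with a median of 5.94. PST lay above PCT/PST, and PCT/PST above PCT, without overlap between libraries. Below PCT, no class lay above its next neighbour without overlap. In Ctrl kidneys the order was different and no pair of neighbours separated: class means ran from 0 to 10.6, urothelium (UT) and smooth muscle and juxtaglomerular cells (SMC/JGC) came first with 21 and 7 UMIs, and PST was the sixth class with 3.23 ± 1.08 (SD, n = 4). Podocytes, macula densa and T and natural killer cells had 0 Fhad1 UMIs in Ctrl. Among 240 Ctrl podocyte nuclei a count of 0 allows a share with a UMI of up to 1.25%, counting error only. The class named B cells, with 183 nuclei and only 7 in 1 library, was not ranked. Its leading genes held no B cell marker of the list used, and joined Pax5 and Bank1 with Clec9a, Flt3 and Tlr11. Its level can therefore not be credited to B cells alone. The Ctrl libraries had 3 to 5 Fhad1 UMIs each in this class, 38.5 to 73.1 CPM, and the cKOt libraries 0 to 5.

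Outside the proximal tubule, Fhad1 had a higher cKOt than Ctrl mean in 16 of 19 named classes, with a median difference of 2.49 CPM, and in 5 classes the genotypes did not overlap. In the 4 Ctrl libraries, the other named nuclei together held 2.15 to 2.86 Fhad1 CPM, and in cKOt 4.56 to 5.59. Vascular nuclei, in which the Pax8 promoter is not active, had 0.799 to 1.74 in Ctrl and 3.75 to 7.56 in cKOt, and mesangial cells and pericytes 1.23 to 1.56 and 4.73 to 9.06. Thick ascending limb (TAL) nuclei had 0.960 to 2.85 in Ctrl and 3.23 to 4.35 in cKOt, and cortical collecting duct (CCD) nuclei 0.652 to 2.61 and 3.90 to 10.5. Podocytes had 0 UMIs in every Ctrl library and 8, 5, 1 and 6 UMIs in the cKOt libraries, or 3.01 to 25.5 CPM. These UMIs came from 3, 1, 1 and 5 nuclei, and 10.7% of podocyte nuclei were marked as doublets, whose part in the podocyte value was not tested. Such a separation with cKOt higher was shared by 1.31% of mRNAs in vascular nuclei, 1.27% in mesangial cells and pericytes, 1.66% in TAL, 1.77% in CCD and 1.59% in podocytes. The cKOt level of other named nuclei was 5.44 to 8.68% of the proximal level in the same library. In the Ctrl libraries, whose proximal level was low, the same figure was 132 to 169%. The cKOt level of other named nuclei thus includes a level that Ctrl nuclei also had. Slc34a1, the phosphate transporter of proximal cells, reached 6.66 to 9.49% of its proximal level in the same nuclei across all 8 libraries. In the 4 cKOt libraries it reached 7.57 to 9.49%. The part of free RNA in the levels outside the proximal tubule was not tested.

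Within cKOt PST, Fhad1 was found in most nuclei. A UMI was present in 55 and 69.5% of the nuclei at ZT4 and in 74.2 and 70.2% at ZT16, against 1.26 to 2.86% in the Ctrl libraries. In cKOt nuclei of the TAL, a distal segment, the mean share was 1.72 ± 0.119% at ZT4 and 1.63 ± 0.0970% at ZT16 (SD, n = 2), with a median depth of 3855 UMIs in TAL and 7243.5 in PST. With every nucleus thinned to 1500 UMIs, which left out 2 of 979 and 0 of 904 cKOt PST nuclei, the share in PST was 24.0 ± 6.40% at ZT4 and 33.7 ± 3.4% at ZT16, and in Ctrl 0.346 ± 0.135% and 0.221 ± 0.0224%. Even before thinning, only 18 Ctrl PST nuclei at ZT4 and 21 at ZT16 had a UMI, so these Ctrl SDs do not cover counting error. Single PST nuclei held up to 24 Fhad1 UMIs, and 5.23 to 22.6% of cKOt PST nuclei had 5 or more, a number that no Ctrl PST nucleus reached. If every UMI of depth had carried Fhad1 at 1 even rate within a library, 64.3 to 90.0% of cKOt PST nuclei would have had a UMI. The measured shares were lower than this in all 4 cKOt libraries, in PST, PCT/PST and PCT alike, so counts were less even among nuclei of a class than counting error at an even rate gives. Any added spread between nuclei lowers the share in this way. The part of doublets, 9.19% of PST nuclei, and of the pooling of clusters in PCT/PST and PCT was not tested.

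**Figure D3:**
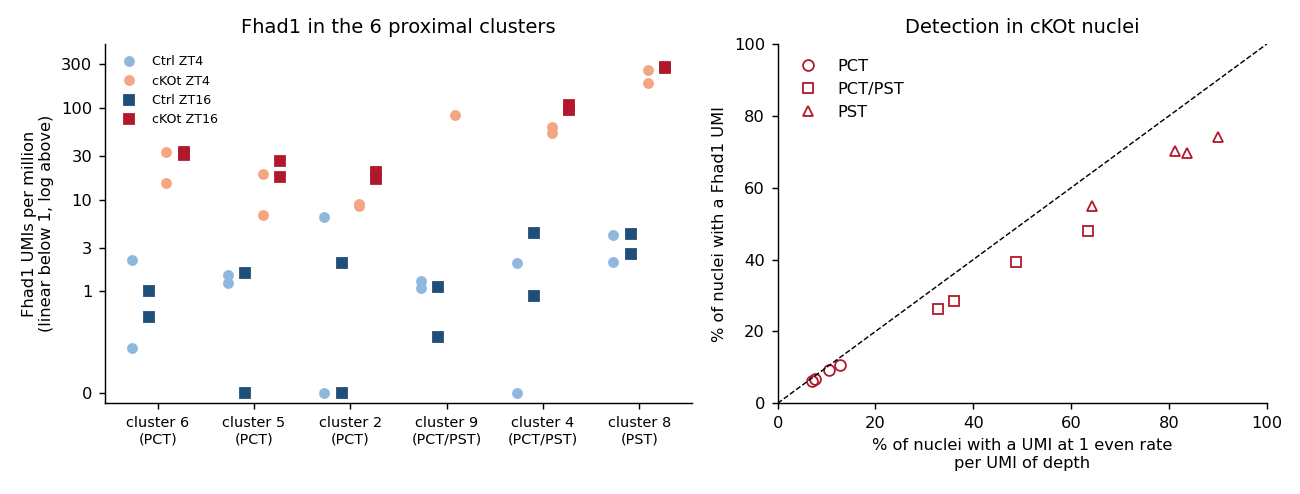
Left, Fhad1 CPM (linear below 1, logarithmic above) in the 6 proximal clusters, 1 point per library with at least 10 nuclei there. Right, for the 4 cKOt libraries and 3 classes, the percentage of nuclei with a Fhad1 UMI against the percentage that an even rate would give, with the dashed line marking equality. In cluster 8 (PST) cKOt libraries lay between 189.7 and 281 and Ctrl libraries between 2.06 and 4.19, and all 12 points on the right lie below the line.

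Fhad1os2 followed Fhad1 into the straight tubule. Of its 107 UMIs in cKOt kidneys, 68 lay in PST, 24 in PCT/PST and 4 in PCT. PST had 16 and 22 Fhad1os2 UMIs at ZT4 (4.88 and 5.37 CPM) and 12 and 18 at ZT16 (2.28 and 5.87). The Ctrl PST nuclei held 0 and 0 at ZT4 and 1 and 0 at ZT16. Set against a floor of 3 counts over the group, cKOt PST was at least 10.9-fold higher at ZT4. At ZT16 the ratio was 28.9, with a counting interval from 4.80 to 1179, since Ctrl held 1 UMI. The fitted log2 fold change there was 4.75, and it was 6.82 without the Ctrl library that held this UMI (replicate 1), 5.35 without replicate 1 of cKOt and 3.89 without replicate 2 of cKOt. In PCT/PST, no Ctrl library held a Fhad1os2 UMI and every cKOt library held 4 to 10. The separation of the genotypes with cKOt higher was shared by 2.32% of lncRNAs in PST and by 2.2% in PCT/PST. In classes outside the proximal tubule, 9 UMIs in cKOt and 4 in Ctrl were spread over several classes, and no difference was detectable at this depth.

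Fhad1os2 was the rarer of the pair in each proximal class. In cKOt, Fhad1os2 made up 1.67% of the pair's UMIs in PST (95% exact binomial interval, 1.3 to 2.11), 0.864% in PCT/PST (0.554 to 1.28) and 0.502% in PCT (0.137 to 1.28). Per library, PST had 2.57 and 2.09 Fhad1os2 UMIs per 100 Fhad1 UMIs at ZT4 and 0.810 and 2.13 at ZT16, and PCT/PST had 0.648 to 1.02. The ranges of the 2 classes overlapped in 1 PST library, replicate 1 of cKOt ZT16. In Ctrl, 1 of 48 UMIs of the pair in PST was Fhad1os2 (2.08%, 0.0527 to 11.1), and this interval spans all 3 cKOt shares. In cKOt PST, 15 and 20 nuclei at ZT4 and 12 and 16 at ZT16 had Fhad1os2, and of these 10, 15, 11 and 13 also had Fhad1. The share of Fhad1-positive nuclei at the same depth would give 9.14, 14.0, 9.01 and 12.0. The odds ratio within strata of depth was 1.32 to 3.75 over the 4 libraries. In PCT/PST, 5, 4, 10 and 5 nuclei had Fhad1os2, and 5, 3, 9 and 3 of them also had Fhad1, where depth would give 1.39, 1.12, 5.21 and 2.00.

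The third gene of the locus, Fhad1os1, was rare in every library. It had 2 and 0 UMIs in Ctrl ZT4, 3 and 4 in cKOt ZT4, 0 and 0 in Ctrl ZT16 and 19 and 15 in cKOt ZT16. Both cKOt ZT16 libraries (0.365 and 0.316 CPM) lay above all others, the highest of which had 0.0784. At ZT16, cKOt was at least 11.2-fold higher than a floor of 3 counts over the Ctrl group (edgeR quasi-likelihood test, Benjamini-Hochberg adjusted p = 0.0243). Only in cKOt ZT16, where it was high, did Fhad1os1 meet the filter of 5 counts in each library of a group. It therefore entered the test only through that group, which limits what the call can show. The call was lost when any of the 4 ZT16 libraries was left out (adjusted p = 0.0617 to 0.241) and when lncRNAs and mRNAs were fitted together (0.0865), with a range of 3.7e-06 to 0.241 over all alternatives. With 2 mice per group, p-values rest on the spread between these few samples. At ZT4 it was too rare to be tested. Between times in cKOt it did not pass the test (log2 fold change 2.15 ± 0.62, edgeR adjusted p = 0.195), and nor did its genotype-by-time term (adjusted p = 0.999). In cKOt at ZT16, PST held 9 and 8 of these UMIs and PCT/PST 7 and 5, while Ctrl at ZT16 held 0 in both classes. In each class Fhad1os1 again met the count filter only through cKOt ZT16, so the same limit holds for the tests there. Fhad1os1 was called at ZT16 in the PST sums as well (adjusted p = 0.0443, beside 0.943% of lncRNAs), a call lost under 9 alternatives including the omission of any ZT16 library, and not in PCT/PST (adjusted p = 0.0992, beside 0.766%). Fhad1os1 was the only called gene among 22 tested neighbours within 500 kb, beside 0.389% of all 4629 lncRNAs called in that comparison. Since it lies wholly within Fhad1 and the strand setting is not known, its counts may not be independent of those of Fhad1. Whether they are was not tested.

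None of the other neighbours passed the test in either genotype comparison. Of 29 annotated neighbours in the count tables, 21 were tested at ZT4, with 0 called by edgeR or DESeq2 and 2 at an unadjusted p under 0.05, beside 0.446% of mRNAs and 0.769% of lncRNAs called. Apart from Fhad1os1, their log2 fold changes lay between -0.50 (Slc25a34, a mitochondrial carrier) and 0.29 (Ddi2, a protease) at ZT4 and between -0.55 (4930455G09Rik, a lncRNA overlapping Fhad1) and 0.33 (Tmem51os1, a lncRNA) at ZT16, where 0.174% of mRNAs were called. The smallest adjusted p values were 0.384 and 0.539, both for Kazn, a desmosome-associated gene. These values are over all nuclei. Within the proximal classes the log2 fold changes ranged wider, from -1.29 (Agmat) to 0.73 (Fblim1), both in PCT, at ZT4. At ZT16 they ran from -1.11 (Fblim1, in PST) to 0.85 (Tmem51os1, in PCT/PST), and apart from Fhad1os1 no neighbour passed the edgeR test there. Tmem51, a membrane protein gene 13.3 kb to one side, had 79.4 to 122 CPM in the 8 libraries. Efhd2, which encodes a calcium-binding protein and lies 14.9 kb to the other side, had 5.65 to 10.0. The genotypes overlapped for both genes. Between times, edgeR and DESeq2 called 0 neighbours in Ctrl and 0 in cKOt, with 2 and 4 at an unadjusted p under 0.05, beside 0.142% and 0% of mRNAs and 0.574% and 0.498% of lncRNAs called by edgeR. Other neighbours tested included Hspb7, Zbtb17, Spen, Fblim1, Tmem82, Plekhm2, Agmat, Dnajc16, Casp9, Gm13075, Gm13062 and Gm13052.

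**Figure D4:**
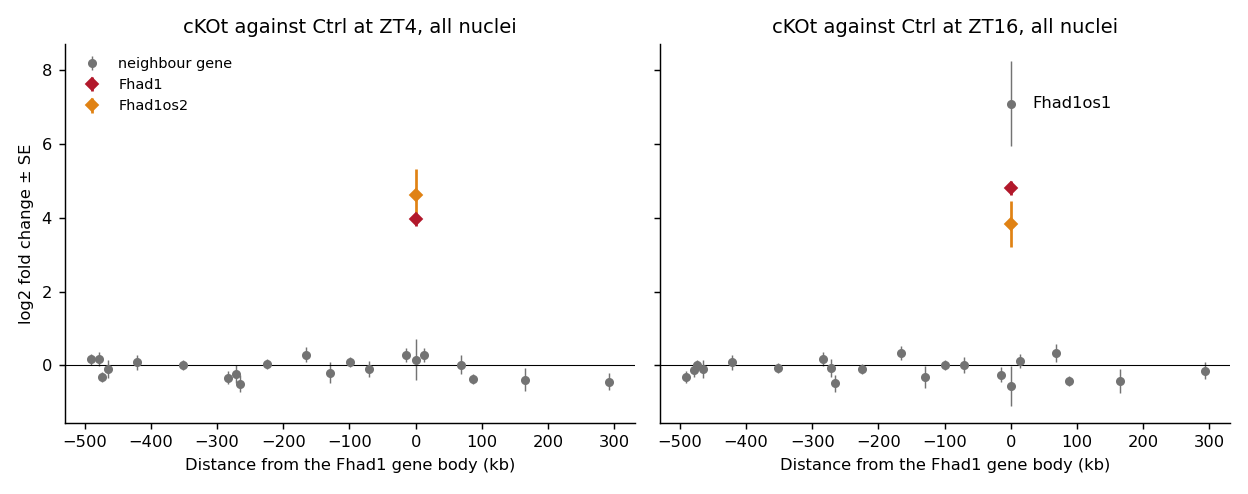
Log2 fold change of cKOt against Ctrl (vertical axis, with SE) over all nuclei for tested genes by distance from the Fhad1 gene body in kb, at ZT4 (left) and ZT16 (right). Fhad1 (3.96 and 4.81) and Fhad1os2 (4.61 and 3.84) lie far from the neighbours, which stay between -0.55 and 0.33 apart from Fhad1os1, and the fitted value of Fhad1os1 is against 2 libraries with no count.

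Other genes with an FHA domain were set beside Fhad1. All 29 listed were tested over all nuclei, and edgeR and DESeq2 called 0 of them between genotypes at ZT4 and at ZT16, with 2 and 0 at an unadjusted p under 0.05. With 0.446% and 0.174% of all mRNAs called, 0 of 29 is near the background. Their median log2 fold change was 0.04 at ZT4 and 0.08 at ZT16, against 0.00 for all mRNAs tested. Between times they called 0 in Ctrl and 0 in cKOt, with 0 and 0 at an unadjusted p under 0.05. Of 14 genes of the motile cilium, a structure that adult tubule cells lack, edgeR called 0 of 13 tested at ZT4 and 0 of 11 at ZT16, with 1 and 2 at an unadjusted p under 0.05, while DESeq2 called 0 and 1. DESeq2 called more mRNAs in all than edgeR in both comparisons, and its totals are given with the clock genes below. The motile cilium genes tested had a median log2 fold change of -0.05 at ZT4 and 0.26 at ZT16, against 0.00 for all mRNAs tested. For ZT16 against ZT4 their median was -0.39 in Ctrl and -0.05 in cKOt, against -0.003 and -0.009. Between times in Ctrl, where 0.142% of mRNAs were called, Dnah5, an axonemal dynein heavy chain, fell by 2.47 ± 0.32 on the log2 scale (edgeR adjusted p = 0.0348). This call was lost with the replicate block and when any single library other than replicate 2 of cKOt ZT4 or replicate 1 of Ctrl ZT16 was left out. Dnah5 was also called in PCT (-2.38 ± 0.31, adjusted p = 0.0124), where 0.596% of mRNAs were called, and in PCT/PST (-2.52 ± 0.39, 0.0378), where 0.386% were, and was too rare to be tested in PST. In cKOt, edgeR called 0 of 13 between times, with 6 at an unadjusted p under 0.05, beside 0% of all mRNAs called, and DESeq2 called 1, among 164 mRNAs in all.

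The clock genes of the study gave the setting. Of 16 tested, 5 rose and 2 fell in cKOt at ZT4, where 0.446% of mRNAs were called. Npas2, the paralog of Clock, rose by 3.97 ± 0.17 on the log2 scale (edgeR adjusted p = 5.9e-05) and the repressor Cry1 by 3.0 ± 0.19 (0.00042), whereas the repressor Nr1d2 fell by 1.79 ± 0.16 (0.0026). Arntl itself rose by 2.80 ± 0.19 (0.00049). At ZT16 only Npas2 (1.88 ± 0.15, adjusted p = 0.0025) and Nr1d2 (-1.34 ± 0.16, 0.023) were called, beside 0.174% of mRNAs. Between times in Ctrl, 4 rose and 3 fell, beside 0.142% of mRNAs called, led by Cry1 (2.71 ± 0.19, 0.0018), Npas2 (2.10 ± 0.16, 0.0018) and Nr1d1 (-4.16 ± 0.33, 0.0021). In cKOt, edgeR called 0 between times, with 4 at an unadjusted p under 0.05, beside 0% of all mRNAs called, and DESeq2 called 3, among 164 mRNAs that it called in all. DESeq2 called 11 clock genes between genotypes at ZT4 and 3 at ZT16, among 349 and 171 mRNAs that it called in all.

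Over the 168 sums of 21 classes in 8 libraries, the log2 levels of the pair correlated with r = 0.42 (description, since the points share libraries and depth). The gene most like Fhad1 was Col6a6, which encodes a collagen VI chain (r = 0.59), followed by A530001N23Rik (0.55), 4930459C07Rik (0.53), Sntg2 (0.53), which encodes a syntrophin, and Gm33906 (0.53). In PST, Col6a6 had 31.4 to 106 CPM in Ctrl and 132 to 303 in cKOt, a smaller gap than that of Fhad1. In cKOt PCT/PST it had 157 to 355. The genes were picked by correlation over sums that include these libraries, so the choice itself favours a genotype gap in PST. All 4 cKOt libraries lay above all 4 Ctrl libraries for 2.4% of mRNAs and 2.32% of lncRNAs in PST. Sntg2 overlapped between genotypes in PST, with 19.4 to 99.1 in Ctrl and 36.1 to 249.8 in cKOt. Those most like Fhad1os2 were Gm42775 (0.54), Sox2 (0.52), which encodes a transcription factor, A530001N23Rik (0.51), Ccdc180 (0.51) and 4930484H19Rik (0.51), and their totals ran from 121 to 1229 UMIs. A530001N23Rik stood in both lists, and in PST it had 1.24 to 8.75 CPM in Ctrl and 9.15 to 21.7 in cKOt. There, 4930484H19Rik had 0.427 to 1.65 in Ctrl and 3.17 to 8.16 in cKOt. Gm42775, Sox2 and Ccdc180 overlapped between genotypes in PST, Gm42775 with 2.69 to 6.41 in Ctrl and 1.90 to 8.30 in cKOt.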

How the data were processed

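Kidney nuclei were sorted and sequenced by the authors with a 10x 3′ v3.1 kit. The deposited matrices hold raw UMI counts per gene and barcode, made with Cell Ranger 7.1.0 per the labels. The methods name mm10 and the processing notes GRCm39, so annotation coordinates here are GRCm39 and promoters GRCm38.p6, unmixed. Barcodes under 500 genes or 800 UMIs, or over 2% mitochondrial UMIs, were removed. Clustering (scanpy 1.11.5) left out Fhad1, and classes were named from marker genes by a rule set after the clusters were seen. Doublets (5.37%) were marked and kept. Counts were summed per library and class and tested with edgeR 4.0.16 (quasi-likelihood, TMM, 4-group model, Benjamini-Hochberg, threshold 0.05), for mRNAs and lncRNAs separately, on genes reaching 5 counts in each library of a compared group. The procedure was also run on simulated counts, and the outcome of that run is not reported here. The SE printed with edgeR log2 fold changes was worked back from the F statistic, as the absolute log2 fold change over the square root of F. DESeq2 1.42.0 was an alternative. The members and lists were chosen with earlier results of these data known. Named genes were the members, called genes of the lists (up to 5 per comparison by p), the neighbours and the 5 genes most correlated with each member (log2 of CPM + 1, at least 100 UMIs). CPM used all UMIs of a library or class. Same-numbered replicates were not treated as pairs. Values of some tested genes are not reported here.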

Additional observations from a re-analysis of the deposited data

Results flagged for a closer look

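The interaction term of the edgeR fit over all nuclei was called for 2 clock genes, among the listed and neighbour genes looked at. The share of all mRNAs called for this term is not given, so the count cannot be set against a background. For Cry1 the difference between the genotype effects at ZT16 and ZT4 was -2.45 on the log2 scale (adjusted p = 0.0436), and for Npas2 it was -2.09 (adjusted p = 0.0436).

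Barcodes removed by the filters, which no comparison used, also held Fhad1. In the 4 cKOt libraries, 711 removed barcodes with 452874 UMIs held 17 Fhad1 UMIs, or 37.5 CPM. In the 4 Ctrl libraries, 682 removed barcodes with 453787 UMIs held 2, or 4.41 CPM.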

How the results depend on the processing

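Of 796 alternative values for 67 results, 683 were labelled the same, 99 moved and 14 lost their call. Counts of called genes were the same when equal to the main count or within a set factor of it. Levels, ratios and fold changes of the pair were the same when within their spread. Only Fhad1os1 was followed by its call, so only it could lose a call in this tally. The 14 were therefore all for Fhad1os1, and its fold change reversed in 0 cases. Losses of the Dnah5 call given above are not among them, since that gene entered only through the counts of motile cilium genes. Time differences of the pair, which carry no call, changed sign in 4 cases, namely Fhad1 in Ctrl in PST (-0.44 to 0.65) and PCT (-0.96 to 0.23) and Fhad1os2 in cKOt over all nuclei (-0.19 to 0.23) and in PST (-1.33 to 0.16). The Fhad1 log2 fold change over all nuclei ranged from 3.8 to 4.13 at ZT4 and from 4.58 to 5.00 at ZT16, in PST from 5.75 to 6.77 and from 6.06 to 6.86, and in PCT from 2.51 to 3.71 and from 3.83 to 4.37. With DESeq2, called mRNAs numbered 349 (genotype, ZT4), 171 (genotype, ZT16), 233 (time, Ctrl) and 164 (time, cKOt) against 72, 28, 23 and 0, called lncRNAs 55 and 37 for time in Ctrl and cKOt against 27 and 23, clock genes 11 at ZT4 and 3 for time in cKOt, and motile cilium genes 1 at ZT16 and 1 for time in cKOt. With no filter on low counts, mRNAs numbered 127, 64, 51 and 10, lncRNAs 84, 67, 137 and 98, and clock genes 2 for time in cKOt. With lncRNAs and mRNAs in 1 fit, lncRNAs numbered 18, 3, 13 and 1, and for time in cKOt mRNAs 1 and clock genes 1, while neighbours at ZT16 numbered 0. Without doublets, time in cKOt gave 12 mRNAs and 13 lncRNAs. Leaving out single libraries gave 23 to 70, 8 to 30, 8 to 25 and 0 to 4 mRNAs, 9 to 40, 0 to 31, 0 to 61 and 2 to 29 lncRNAs, 5 to 8 clock genes at ZT4, 1 to 2 at ZT16 and 0 to 1 for time in cKOt, 0 to 1 neighbours at ZT16 and 0 to 1 motile cilium genes for time in Ctrl. It gave 3.88 to 7.73 for Fhad1os2 at ZT4, the highest without replicate 2 of Ctrl ZT4, which held the only Ctrl UMIs. In PST, Fhad1 at ZT16 was 1.47 CPM in Ctrl when thinned to 1500 UMIs per nucleus (3.37 unthinned), and in cKOt 289 without doublets and 295 thinned (278 otherwise). The thinned Ctrl value rests on few UMIs. The causes were not tested.

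Deviations of same-numbered libraries correlated from -0.22 to 0.37 over 6 pairs of groups, 3 of them over 0.1, with the highest between genotypes within a time (0.37 at ZT4 and 0.36 at ZT16). Since not every pair was over 0.1 and no label ties the numbers, the samples were not taken as paired. The replicate block fits a replicate effect shared by both times, so it does not cover a pairing within a time. Such a pairing was not fitted, and the genotype tests leave it out. With the replicate block, 15 mRNAs and 0 motile cilium genes were called for time in Ctrl, and 2 mRNAs and 2 clock genes for time in cKOt. Depth limits Fhad1os2 and Fhad1os1, of which Ctrl libraries held 0 to 3 and 0 to 2 UMIs.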
